A study of Mus musculus with 18 samples.

Results

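Messenger RNA of S51A fibroblasts was compared between 120 min of hydrogen peroxide and no treatment. The genes compared were the 4328 that stand under a single, unrepeated symbol in both the 120 min and the untreated table, of 10110 genes in any of the 3 tables. The change of a gene is log2 of its FPKM plus 1 at 120 min over its FPKM plus 1 in untreated cells, minus the median of that value over the 4328 genes. FPKM is a number of sequenced fragments corrected for the length of the transcript and the size of the library. The median removed was -0.18 in S51A, and -0.10 when the same was done in WT cells. A gene is called higher (or is said to rise) when its change is at least 1 on this log2 scale, a 2-fold difference, and lower (or to fall) when it is -1 or less.

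The cells were 2 immortalized lines of mouse embryonic fibroblasts, 1 for each genotype, so genotype and line cannot be told apart. The S51A line carries eIF2α with alanine in place of the serine at residue 51, and the other line is wild type (WT). The groups used were S51A after 120 min, S51A after 15 min, S51A untreated, WT after 120 min, WT after 15 min and WT untreated, where treatment was 500 µM H2O2 in the culture. The labels list 3 samples for each of these 6 groups, while the design text of the series speaks of duplicates. Each table gives 1 value per gene and group, the authors' own, with no replicate values, spread or depth, so no test, standard deviation or interval between the time points was possible. All values below are therefore descriptions of these group values. A table lists only genes that the authors called different between S51A and WT at that time, so a gene missing from it has not been shown to be silent or steady. The tables may also have been normalized separately.

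The α subunit of eIF2 helps to bring initiator tRNA to the ribosome. Stress-activated kinases phosphorylate its regulatory serine, which slows initiation at most messages while a few, including that of the transcription factor ATF4, are translated more; the genes that ATF4 then activates form the integrated stress response. Hydrogen peroxide is an oxidant that also activates MAP kinases, NF-kB and heat shock factor, whose first targets are short-lived messages for transcription factors, cytokines and chaperones. Cells with S51A eIF2α cannot make the phosphorylated form.

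The reference sequence of Eif2s1, the gene of eIF2α on chromosome 12, is shown around the altered codon, since that codon defines the line. It is the reference (GENCODE M21), not read from these cells, and the capitals mark the serine codon, codon 52 counted from the start codon and residue 51 when the first methionine is left out.
Eif2s1 coding sequence: cttagtgaattaTCCagacgacgtatc

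The 250 bases before the transcription start of 4 genes that rose are shown because these genes stand for the heat shock, cytokine, NF-kB feedback and stress transcription factor responses described below. They are from RefSeq (GRCm38.p6), on the strand of the gene, and capitals mark matches to the motifs named after them.
Hspa1b, chr17:34959239-34959488, minus strand: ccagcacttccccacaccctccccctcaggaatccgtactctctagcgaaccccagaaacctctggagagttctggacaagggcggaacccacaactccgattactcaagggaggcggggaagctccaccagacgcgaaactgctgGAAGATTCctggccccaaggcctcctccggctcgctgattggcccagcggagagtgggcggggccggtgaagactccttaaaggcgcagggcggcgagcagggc
Il6, chr5:30012864-30013113, plus strand: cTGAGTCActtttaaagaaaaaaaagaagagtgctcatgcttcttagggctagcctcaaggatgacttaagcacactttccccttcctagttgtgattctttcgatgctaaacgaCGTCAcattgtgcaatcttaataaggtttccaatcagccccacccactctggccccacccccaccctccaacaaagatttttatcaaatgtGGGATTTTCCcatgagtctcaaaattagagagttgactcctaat
Nfkbia, chr12:55492648-55492897, minus strand: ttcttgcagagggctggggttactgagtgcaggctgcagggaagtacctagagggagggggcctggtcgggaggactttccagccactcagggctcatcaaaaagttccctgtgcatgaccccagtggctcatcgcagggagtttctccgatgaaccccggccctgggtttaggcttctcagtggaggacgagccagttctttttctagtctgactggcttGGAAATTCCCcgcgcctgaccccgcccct
Atf3, chr1:191183334-191183583, minus strand: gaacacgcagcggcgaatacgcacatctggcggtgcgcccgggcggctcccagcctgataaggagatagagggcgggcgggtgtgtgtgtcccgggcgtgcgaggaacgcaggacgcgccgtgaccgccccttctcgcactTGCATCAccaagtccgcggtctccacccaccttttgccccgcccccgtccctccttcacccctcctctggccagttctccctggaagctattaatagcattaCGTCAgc
In Hspa1b the capitals are the core of a heat shock element, GAANNTTC, at -104 to -97 from the start, and 7.95% of 27025 mouse promoter windows (250 bases before to 50 after the start) held these letters on either strand. In Il6 they are an AP-1 element, TGANTCA, at -249 to -243 (7.93% of windows), the core TGACG of a cAMP response element on the opposite strand at -135 to -131 (21%), and the NF-kB consensus at -44 to -35 (8.18%). Nfkbia has the NF-kB consensus on the opposite strand at -29 to -20. This consensus, GGGRNNYYCC (N is any base, R is A or G, Y is C or T), was added to the motifs planned. The planned NF-kB letters, GGGNNNTCC and GGGNNNCCC, match neither marked NF-kB stretch. In each of the 4 genes capitals were given only to motifs chosen for that gene. Atf3 has TGCATCA, a form of the element bound by ATF4 and C/EBP factors, at -109 to -103 (3.20%), and TGACG on the opposite strand at -7 to -3. A match is a description of the letters and not a site of binding. Only 36 of the 50 genes that rose most had a promoter in the table, so motif shares of that group were void and are not given.

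After 120 min S51A cells held far more message for interleukin 6, inducible HSP70, the chemokine CCL2 and the ATF3 and EGR1 transcription factors, and far less for the transcription factors OSR1, FOXC1 and KLF3 and the growth-arrest protein GAS1. Of the 4328 genes, 497 rose (11.5%) and 269 fell (6.22%). In WT the same genes moved less, with 27 higher (0.624%) and 71 lower (1.64%). The standard deviation of the change over genes was 0.75 in S51A and 0.34 in WT. The 2-fold mark lay between Upf3a, at 70.5 FPKM at 120 min against 39.4 FPKM untreated, which was just inside, and Rbm34, at 23.3 against 12.7 FPKM, which was just outside. On the other side Herpud1, at 15.5 FPKM at 120 min against 36.3 FPKM untreated, was just inside and Pi4ka, at 6.19 against 15.2 FPKM, just outside. Without removal of the median, 361 genes were past 2-fold upwards and 430 downwards. Centred on genes with at least 5 FPKM in both S51A groups, the counts were 400 and 377, so which direction held more genes depended on the scaling.

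**Figure D1:**
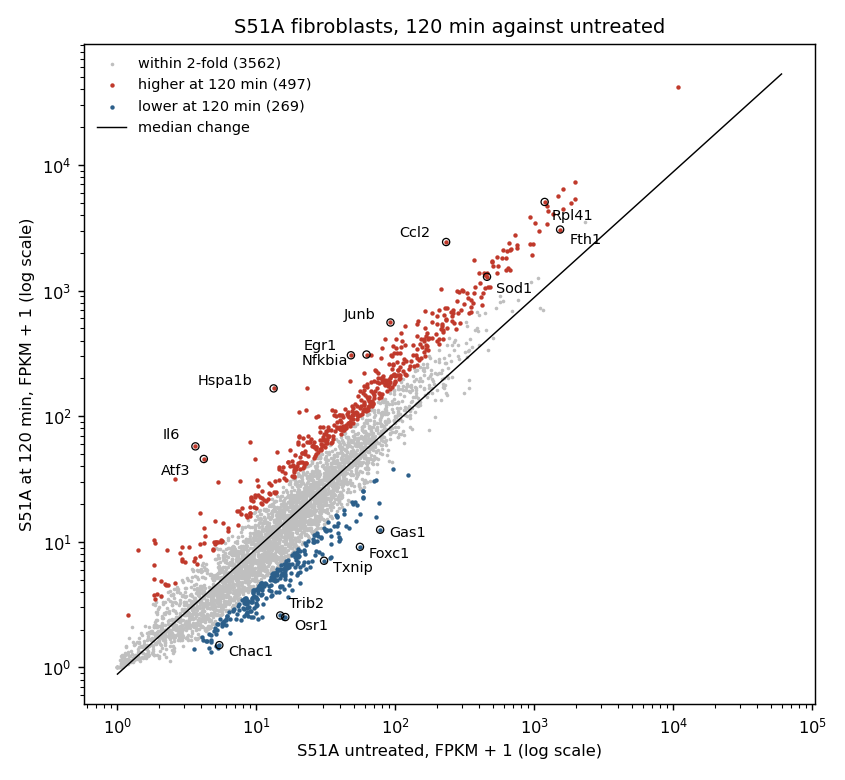
Level of each of 4328 genes in S51A cells at 120 min (vertical axis) against untreated S51A cells (horizontal axis), as FPKM + 1 on log scales, 1 point a gene. Red points are the 497 genes that rose and blue points the 269 that fell by 2-fold or more around the median change (line); most of the highest points, such as Rpl41, Fth1 and Sod1, lie in the red band.

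Of these genes, 3826 were also listed at 15 min, when S51A cells stood close to their untreated levels. The standard deviation of the 15 min change was 0.14, and 3 genes were higher by 2-fold (0.0784%) and 2 lower (0.0523%). The lower pair were Ass1, which encodes a urea cycle enzyme, at 1.55, 0.277 and 0.629 FPKM at 0, 15 and 120 min, and Egr1, an immediate early transcription factor gene. Egr1 was at 46.9, 15.2 and 304 FPKM at 0, 15 and 120 min in S51A, so its level at 15 min lay below both others. The genes past 2-fold upwards at 15 min were Gm15056 (1.06, 3.53 and 3.89 FPKM at 0, 15 and 120 min), Mir6236 and Rn45s, the ribosomal RNA precursor. Rn45s was at 34.1, 83.3 and 111 FPKM at 0, 15 and 120 min in S51A, and at 55.3 FPKM at 120 min against 48.2 FPKM untreated in WT. Mir6236, whose annotated transcript is 123 nt long, was at 10885, 28924 and 42055 FPKM at the same times in S51A, and at 18306 FPKM at 120 min against 13125 FPKM untreated in WT. Libraries were made from polyadenylated RNA, and Rn45s, which is not such RNA, was higher in S51A at both 15 and 120 min. Its part in the changes described here was not tested.

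The change in S51A followed transcript length closely, and that in WT did not. Lengths came from GENCODE M21, 1 transcript a gene, for 4317 of the 4328 genes. In the shortest of 10 equal groups by length, with a median of 945.5 nt, the median change in S51A was 1.18, and 275 of 432 genes rose while 1 fell. In the longest group, with a median of 8583.5 nt, the median change was -0.69, and no gene rose while 105 of 432 fell. The medians of the groups between lay in order. In WT all 10 medians lay between -0.03 and 0.08. Spearman's rank correlation between change and length over genes was -0.67 in S51A and 0.06 in WT, given as a description because genes share libraries and are not replicates. At 15 min this correlation was already -0.57 in S51A, although the medians then spanned only 0.13 in the shortest to -0.16 in the longest group.

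**Figure D2:**
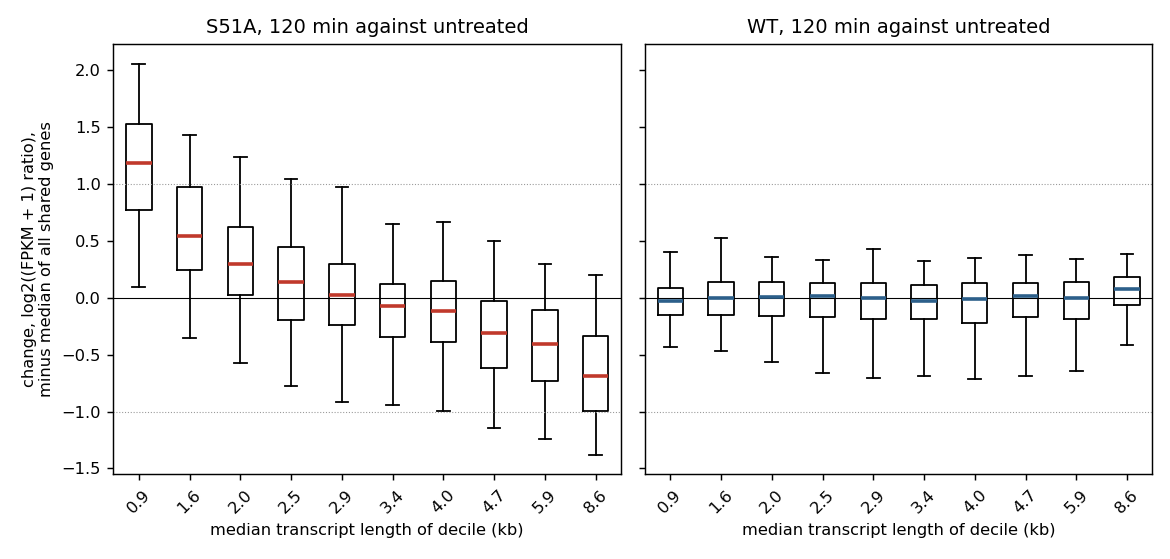
Change from untreated to 120 min (log2, centred on the median of all shared genes) in 10 groups of genes by transcript length, in S51A (left) and WT (right). Boxes are quartiles, whiskers the 5th and 95th percentiles and coloured lines medians; in S51A the medians step down from 1.18 to -0.69, and in WT they stay between -0.03 and 0.08.

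Other features went with the S51A change less closely than length did. Spearman's rank correlation with the change was -0.44 for the genomic span of the gene, -0.37 for the number of exons, 0.25 for the untreated level and 0.06 for GC content. Among genes with a transcript of 2410 nt or less, the median change was 0.71, 0.41 and 0.35 where the genomic span fell in the short, middle and long part of all genes (896, 404 and 139 genes); among genes with a transcript of 4118 nt or more it was -0.27, -0.32 and -0.50 (131, 412 and 896 genes). Genes that rose had a median transcript of 1177 nt and 39.1% of them were under 1000 nt, against 5.74% of all. Genes that fell had a median of 5684 nt, 59.9% were over 5000 nt (21.8% of all) and none was under 1000 nt. Genes under 1000 nt made up 53.3% of the summed FPKM of the shared genes in S51A at 120 min, against 31.6% in untreated S51A. In WT the shares were 38.7% at 120 min and 36.8% untreated. These shares include Mir6236, the highest single entry, at 42055 FPKM in S51A at 120 min and 10885 FPKM untreated. The density of the destabilizing letters ATTTA was 2.06 per 1000 bases of 3′ UTR in genes that rose, 1.76 in genes that fell and 1.86 over all. The longer element TATTTAT was found in the 3′ UTR of 18.8% of genes that rose, 44.4% of genes that fell and 31.0% of all; median 3′ UTR lengths were 302 nt in genes that rose and 2008 nt in genes that fell. With each gene set against genes of its own length group, 156 rose (3.61%) and 163 fell (3.78%) in S51A; in WT 24 rose (0.556%) and 70 fell (1.62%). Whether the trend lies in the cells' RNA or in the libraries was not tested.

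Genes of the immediate early response, which encode transcription factors and regulators switched on within minutes to hours of a stimulus, rose as a group. Of 28 shared members 16 rose and 1 fell, with a median change of 1.33, and the counts were again 16 and 1 within length groups, with a median of 1.19. For this list and those below, the shares over all shared genes were 11.5% higher and 6.22% lower in S51A. Within length groups these shares were 3.61% and 3.78%, and in WT they were 0.624% and 1.64%. In WT 4 of the 28 rose and 1 fell (median 0.09). Atf3, a stress-induced repressor, was at 44.6 FPKM at 120 min against 3.18 FPKM untreated in S51A, and at 15.3 against 1.55 FPKM in WT. Junb, a subunit of AP-1, was at 556 FPKM against 91.1 FPKM untreated in S51A, a change of 2.77, and at 88.6 against 64.0 FPKM in WT. Maff, a small MAF protein, was at 61.0 against 8 FPKM in S51A (change 2.96) and at 31.8 against 23.8 FPKM in WT. The level of Atf3 was thus higher at 120 min in both lines, whereas Junb and Maff passed 2-fold in S51A and not in WT; the difference between lines could not be tested.

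Jun, another AP-1 subunit, stood at 97.7 FPKM in treated S51A cells and 25.8 FPKM in untreated ones (change 2.06), while WT gave 54.6 and 52 FPKM. Myc, a growth regulator, was at 99.7 against 26.7 FPKM in S51A and at 60.5 against 96.3 FPKM in WT, so its levels went opposite ways. Ier3, a regulator of cell survival, did likewise, with 307 against 65.8 FPKM in S51A and 86.2 against 149 FPKM in WT. Gadd45b, a stress sensor, was at 292 against 77.7 FPKM in S51A, and Btg1, an antiproliferative gene, was the member that fell, at 6.87 against 18.8 FPKM. Fosl1, an AP-1 subunit gene, was at 22.8 against 8.69 FPKM in S51A and at 58.5 against 104 FPKM in WT. Fos did not pass in S51A: it was at 14.8, 8.06 and 20.5 FPKM at 0, 15 and 120 min, a change of 0.62. In WT Fos did pass, at 3.81 FPKM at 120 min against 1.48 FPKM untreated (change 1.05). Id1 and Id3, which encode inhibitors of helix-loop-helix factors, had changes of 0.34 and -0.14.

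Of 27 NF-kB targets and cytokine genes 8 rose and none fell (median change 0.32), and within length groups 7 rose and 1 fell (median 0.32). None of the 27 rose in WT and 1 fell. Il6, a cytokine gene, had the highest change of all 4328 genes, 4.16 (4.02 within its length group): it was at 56.5 FPKM at 120 min against 2.64 FPKM untreated in S51A, a ratio of 21.4, and at 1.79 against 1.49 FPKM in WT. Ccl2, a monocyte chemokine gene, was at 2436 FPKM against 231 FPKM untreated in S51A and at 242 against 419 FPKM in WT. Its change of 3.57 was 2.39 within its length group, since its transcript is 813 nt long. Ptgs2, which makes prostaglandins, was at 44.3 against 8.69 FPKM in S51A and at 111 against 142 FPKM in WT. S51A cells thus remained below WT for Ptgs2 at 120 min.

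Among regulators of NF-kB in this list, Nfkbia and Tnfaip3 rose, while Zc3h12a (4.26 against 7.46 FPKM), Nfkbiz (27.7 against 26.5 FPKM) and Bcl3 (8.75 against 15.5 FPKM) stayed within 2-fold in S51A. Nfkbia, which encodes IκBα, was at 309 FPKM at 120 min against 61.0 FPKM untreated in S51A, a ratio of 5.06, and at 62.7 against 39.1 FPKM in WT. Tnfaip3, which encodes the deubiquitinase A20, was at 41.9 against 15.8 FPKM in S51A, while WT stayed at 2.23 against 2.43 FPKM. The chemokine genes Cxcl1 and Cxcl10 were at 666 against 258 FPKM and 523 against 117 FPKM in S51A; the change of Cxcl1, 1.54, was 0.36 within its length group and that of Cxcl10, 2.33, was 1.14. Subunit genes of the factor itself did not pass, with Nfkb1 at 33.8 against 39.4 FPKM and Relb at 22.5 against 16 FPKM. The adhesion gene Vcam1 (45.3 against 49.9 FPKM) and Lcn2, a secreted iron-binding protein gene (17 against 17.5 FPKM), were likewise within 2-fold.

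Genes of inducible HSP70 rose, and that of the constitutive form did not pass 2-fold. Of 15 heat shock chaperone genes 5 rose and none fell (median 0.74); within length groups 3 rose (median 0.52). Hspa1b, which encodes inducible HSP70, was at 165 FPKM at 120 min against 12.3 FPKM untreated in S51A, a ratio of 13.5, and at 7.31 against 1.20 FPKM in WT. Hspa1a, its neighbouring copy, was at 30.7 against 1.58 FPKM in S51A and at 0.289 against 0.0467 FPKM in WT. The promoter windows of these copies match at 296 of 300 bases and their coding sequences are nearly identical, so reads may be shared and their separate levels are uncertain. Dnajb1, an HSP40 co-chaperone, was at 78.2 against 41.4 FPKM in S51A (change 1.08). Hspa8, the constitutive HSC70, was at 843 against 760 FPKM (change 0.33) and Hsf1, the heat shock factor gene, at 28.8 against 34.3 FPKM (change -0.06). None of the 9 genes in a list of endoplasmic reticulum chaperones and Xbp1 passed 2-fold (median 0.43, and -0.37 when centred within groups of untreated level). Within length groups 1 fell, Xbp1, a transcription factor of the unfolded protein response (23.8 against 45.9 FPKM, change -0.74, and -1.04 in its length group).

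**Figure D3:**
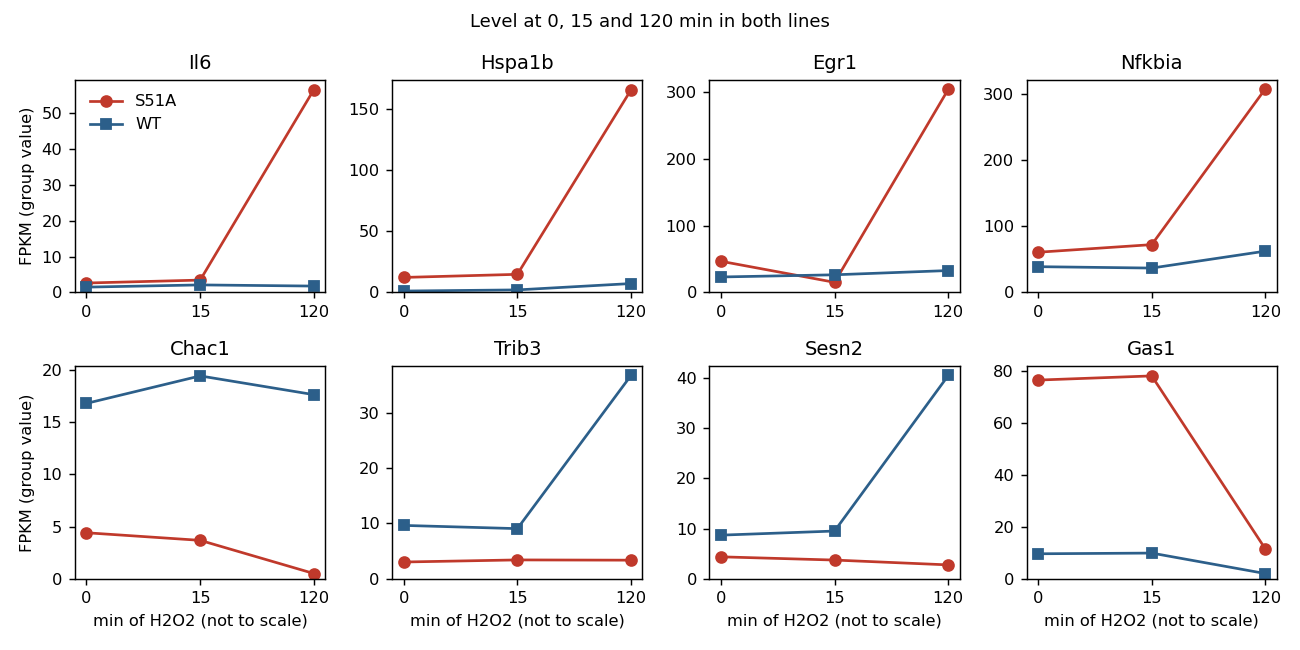
Group FPKM of 8 genes at 0, 15 and 120 min of hydrogen peroxide in S51A (red circles) and WT (blue squares), on linear axes that start at 0, with times evenly spaced. Il6, Hspa1b, Egr1 and Nfkbia are high in S51A at 120 min and not at 15 min; Trib3 and Sesn2 rise in WT alone; Chac1 falls in S51A and Gas1 falls in both lines.

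Targets of the integrated stress response did not rise as a group in S51A. Of 22 shared members 2 rose and 3 fell, with a median change of 0.04, and within length groups none rose and 3 fell. Over all shared genes 11.5% rose and 6.22% fell, and within length groups 3.61% and 3.78%. In WT 3 members rose and none fell (median 0.18), against 0.624% and 1.64% of all shared genes. Sesn2, a regulator of growth signalling, was at 2.77 FPKM at 120 min against 4.38 FPKM untreated in S51A (change -0.33), and at 40.5 against 8.69 FPKM in WT. Trib3, a pseudokinase gene induced by ATF4, was at 3.36 against 3.03 FPKM in S51A (change 0.29) and at 36.8 against 9.65 FPKM in WT. Slc7a11, the cystine transporter, was at 0.232 against 0.212 FPKM in S51A and 3.14 against 0.966 FPKM in WT. These 3 genes are the ones that rose in WT, and in S51A each stayed within 2-fold. For Slc7a11 both S51A levels lay below the 1 FPKM added to each level, where a larger ratio would also stay within 2-fold.

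Chac1, which encodes an enzyme that degrades glutathione, fell to 0.503 FPKM in S51A at 120 min, against 4.41 FPKM untreated (change -1.67), and was at 17.6 against 16.8 FPKM in WT. Ddit4, an inhibitor of mTOR signalling, was at 11.1 against 30.5 FPKM in S51A and 18.4 against 17.8 FPKM in WT. Herpud1, which serves protein degradation at the endoplasmic reticulum, was the gene just inside the mark. The members that rose were Nupr1, at 120 against 52 FPKM, and Vegfa, at 22.8 against 9.32 FPKM, and neither passed within its length group (0.19 and 0.20). The transcript used for Vegfa is 654 nt long, so its length group rests on the transcript chosen. Biosynthetic targets stayed within 2-fold, with Asns at 72.0 against 53.1 FPKM and Psat1 at 164 against 161 FPKM. None of 15 cytosolic aminoacyl-tRNA synthetase genes, which charge tRNAs, passed in either line; their changes in S51A lay between -0.42 and 0.63. Atf4 was not in the 120 min table, so its change is not given.

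Most genes of translation control stayed within 2-fold. Eif2s1 was at 57.7 FPKM at 120 min against 45.3 FPKM untreated in S51A and at 97.7 against 91.8 FPKM in WT; this level does not check the genotype, which is a substitution. The eIF2α kinase genes Eif2ak2 and Eif2ak3 (PKR and PERK) were at 16.8 against 25.8 FPKM and 8.75 against 12.2 FPKM, and Eef2k, the kinase of elongation factor eEF2, was at 1.28 against 2.23 FPKM. Of 28 genes of initiation and elongation 5 rose and none fell, and 1 of them, Eef1b2, an exchange factor of elongation, also passed within its length group (724 against 232 FPKM, change 1.81, and 1.52 within the group). The annotated transcript of Eef1b2 is 1939 nt long, and its length group rests on the transcript chosen.

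The largest block of genes that rose encodes small, abundant proteins. Of 48 cytosolic ribosomal protein genes 47 rose and none fell, with a median change of 1.75, while none passed in WT (median 0.09). Rpl41 was at 5078 FPKM at 120 min against 1184 FPKM untreated in S51A, and at 1428 against 1438 FPKM in WT. Within length groups 8 of the 48 rose and the median was 0.64. The highest of those were Rps15a (172 against 58.5 FPKM) and Rps20 (3468 against 1017 FPKM), whose annotated transcripts are 5179 and 3706 nt long, so their length group rests on the transcript chosen. Reads of ribosomal protein genes may be shared with their many processed pseudogenes. All 47 genes that rose were called lower than WT in the untreated table and higher than WT at 120 min. A gene that rose only to the WT level would not be listed at 120 min, so the listing itself favours this pattern. Of 76 cytosolic ribosomal protein genes listed at any time, only these 48 were shared.

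The same held for mitochondrial and proteasome genes. Of 38 oxidative phosphorylation subunit genes 34 rose (median 1.54), and 3 within length groups (median 0.49). Atp5e, a small subunit of ATP synthase, was at 1031 FPKM at 120 min against 211 FPKM untreated in S51A and at 340 against 357 FPKM in WT. Ndufs1, a subunit of complex I with a transcript of 2661 nt, was at 49.2 FPKM in both. Of 34 mitochondrial ribosomal protein genes 18 rose (median 1.05), and 4 within length groups (median 0.18). Of 10 proteasome subunit genes 6 rose (median 1.22), and 2 within length groups (median 0.35): Psma2, at 580 against 231 FPKM, and Psma3, at 184 against 75.6 FPKM. Their annotated transcripts are 2911 and 2846 nt long, so their length group rests on the transcript chosen. Psma6 and Psmb6, with annotated transcripts of 1042 and 798 nt, each had a change of 1.44, and 0.26 within their length group. None of these lists had a member past 2-fold in WT. Listed at any time were 70 oxidative phosphorylation, 73 mitochondrial ribosomal protein and 31 proteasome subunit genes. Those not shared are outside these counts, and the same limit of the listing applies.

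**Figure D4:**
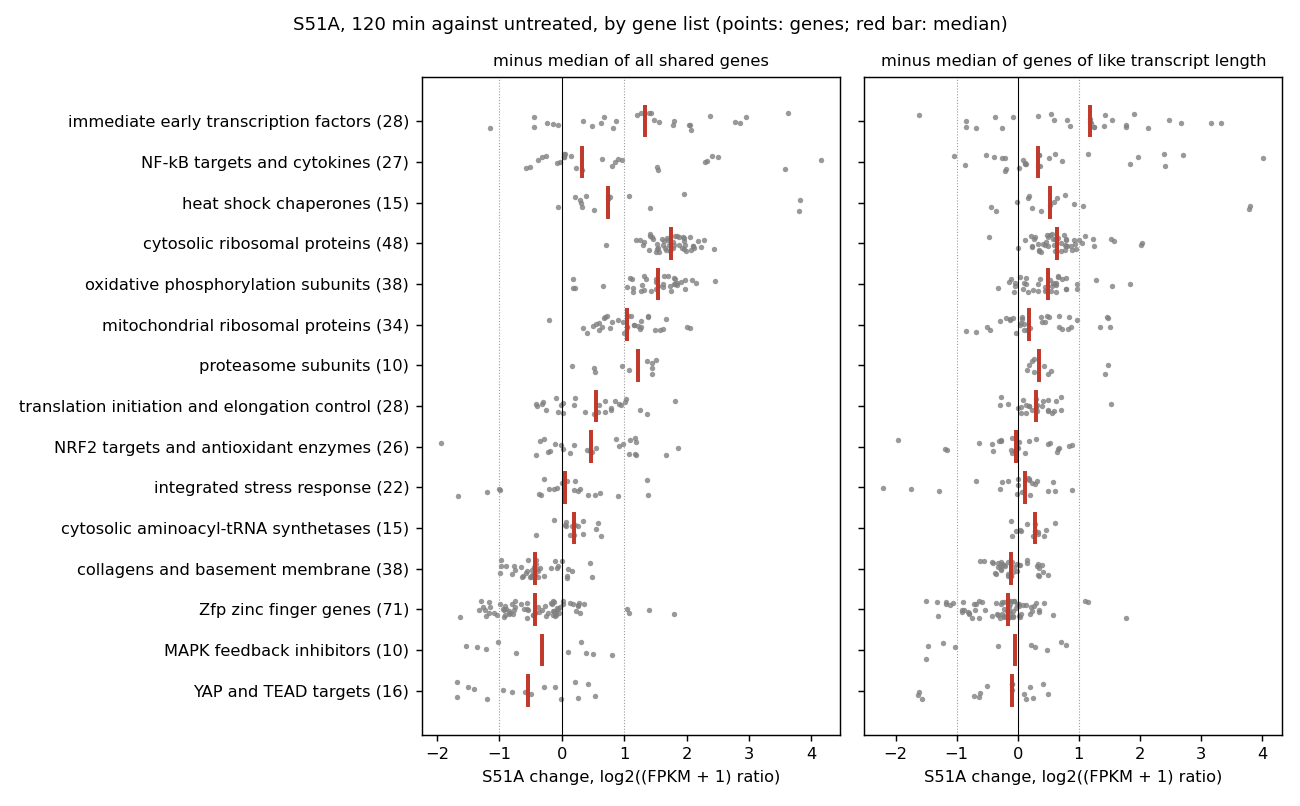
S51A change of each gene in 15 of the gene lists, as log2 of the FPKM + 1 ratio, minus the median of all shared genes (left) or of genes of like transcript length (right). Points are genes, red bars medians and dotted lines the 2-fold marks; the bar of immediate early genes moves little between panels (1.33 and 1.19), while that of cytosolic ribosomal proteins moves from 1.75 to 0.64.

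Antioxidant genes showed the same dependence on length. Of 26 NRF2 targets and antioxidant enzyme genes 8 rose and 1 fell (median 0.47), and within length groups none rose and 3 fell (median -0.03). Txn1, which encodes thioredoxin, was at 1389 FPKM at 120 min against 431 FPKM untreated in S51A (change 1.87, and 0.68 in its length group), and Sod1, superoxide dismutase, was at 1287 against 455 FPKM (1.68 and 0.49). Gclc, which makes glutathione, was at 11.6 against 17.1 FPKM. Txnip, an inhibitor of thioredoxin, fell at 6.06 against 29.7 FPKM, a change of -1.94 and -1.96 in its length group; in WT it was at 1.54 against 3.89 FPKM. Hmox1 was not in the 120 min table. Of 18 p53 targets 5 rose and none fell (median 0.14), against 11.5% and 6.22% of all shared genes, and within length groups 4 rose. Among the 5 were Pmaip1, which encodes the cell death protein NOXA (17.6 against 6.82 FPKM), and Fas, a death receptor (46.5 against 19.6 FPKM, change 1.39, and 0.85 in its length group); Cdkn1a was not in the 120 min table.

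The 4 genes that fell most were Osr1, Klf3, Gas1 and Foxc1. Osr1, a zinc finger factor of mesenchyme, had the lowest change of all, -2.50: it was at 1.52 FPKM at 120 min against 15.1 FPKM untreated in S51A, and at 9.32 against 38.6 FPKM in WT. Gas1, a membrane protein linked to growth arrest, was at 11.5 against 76.6 FPKM in S51A and 2.01 against 9.65 FPKM in WT. Foxc1, a forkhead factor gene, was at 8.11 against 54.6 FPKM in S51A and 4.20 against 20.8 FPKM in WT. Osr1, Gas1 and Foxc1 fell in both lines, and all 3 kept a change below -2 within their length groups in S51A. Klf3, a repressor of transcription, was at 1.47 against 14.5 FPKM in S51A (change -2.47) and at 6.59 against 9.71 FPKM in WT, where it stayed within 2-fold.

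The other genes among the 12 lowest were Trib2, Cdk12, Filip1l, Fzd7, Ston1, Samd9l, Mesdc1 and Casc5. Of these, Trib2, Cdk12, Fzd7 and Mesdc1 also fell in WT, with changes there of -1.21, -1.14, -1.27 and -2.18. Filip1l, Ston1, Samd9l and Casc5 stayed within 2-fold in WT. Trib2, a pseudokinase gene, was at 1.59 against 13.8 FPKM in S51A and Cdk12, a kinase of RNA polymerase II, at 2.62 against 15.9 FPKM. Fzd7, a Wnt receptor, was at 6.41 against 32.9 FPKM, and Casc5, a kinetochore gene with a 7800 nt transcript, was at 3.71 against 19.6 FPKM (change -1.95, and -1.26 in its length group). Beside the genes already described, the 12 highest held Rab26os (168 against 22 FPKM), Zglp1 (7.57 against 0.401 FPKM), B330016D10Rik (9.38 against 0.829 FPKM) and Dancr, a noncoding RNA (29.0 against 4.32 FPKM). The sources used here do not say how reads of overlapping genes were assigned, so levels of such genes, Rab26os included, are uncertain.

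Targets of YAP and TEAD, which respond to cell shape and contact, fell in part. Of 16 shared members 5 fell and none rose in S51A (median -0.55), and 7 fell in WT. Within length groups 3 fell in S51A and the median was -0.10. Ajuba and Amotl2, regulators of the Hippo pathway, fell in both lines: Amotl2 was at 32.9 against 122 FPKM in S51A and at 22.6 against 89.9 FPKM in WT. Cyr61 and Ctgf, matricellular proteins, parted between lines: Cyr61 was at 338 against 263 FPKM in S51A and at 27.5 against 206 FPKM in WT, and Ctgf was at 62.7 against 58.9 FPKM in S51A and 19 against 79.9 FPKM in WT. Of 10 MAP kinase feedback inhibitors 4 fell in S51A, and 4 within length groups (median -0.31 and -0.05), and 4 fell in WT. Dusp5 and Dusp7, phosphatases of MAP kinases, fell in both lines, while Dusp6 was at 12 against 9.45 FPKM in S51A and at 7.16 against 33.8 FPKM in WT.

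Long genes of the matrix stood lower at 120 min without passing the mark. None of 38 collagen and basement membrane genes passed 2-fold, and their median was -0.43 against all genes and -0.12 within length groups. Col1a1, the main chain of type I collagen, was at 695 FPKM at 120 min against 1160 FPKM untreated in S51A, and at 202 against 241 FPKM in WT. Of 71 genes named Zfp, 11 fell and 4 rose (median -0.43), and within length groups 7 fell and 3 rose (median -0.16). Zfp503, a repressor in development, was at 2.19 against 10.1 FPKM, and Zfp36, which despite its name encodes the RNA-binding protein tristetraprolin, rose to 29.9 FPKM, against 9.06 FPKM untreated. Of 14 cholesterol and fatty acid synthesis genes 2 fell, Fasn (11.9 against 45.6 FPKM) and Acaca (3.10 against 9 FPKM), with transcripts of 10050 and 9513 nt, and neither fell within its length group.

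Some genes passed in both lines. There were 12 that rose in both, 44.4% of the 27 that rose in WT and 2.41% of the 497 that rose in S51A. Over all shared genes, 11.5% rose in S51A and 0.624% in WT. There were 31 that fell in both, 43.7% of the 71 in WT and 11.5% of the 269 in S51A. Over all shared genes, 6.22% fell in S51A and 1.64% in WT. Besides Atf3 and Hspa1b, the genes higher in both included Nr4a1, a nuclear receptor of the immediate early group, at 10.1 against 3.25 FPKM in S51A and 23.1 against 9 FPKM in WT, and Ndrg1, a stress gene, at 29.2 against 12.6 FPKM in S51A and 63.6 against 20.8 FPKM in WT. Among those lower in both were Rnd3, a regulator of the actin cytoskeleton, at 19.4 against 75.6 FPKM in S51A and 5.21 against 21.3 FPKM in WT, and Cited2, a transcription coregulator, at 36.8 against 95 FPKM in S51A and 56.5 against 202 FPKM in WT. Phlda1 alone passed in opposite directions, at 58.5 against 20.5 FPKM in S51A and at 21.9 against 62.2 FPKM in WT.

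**Figure D5:**
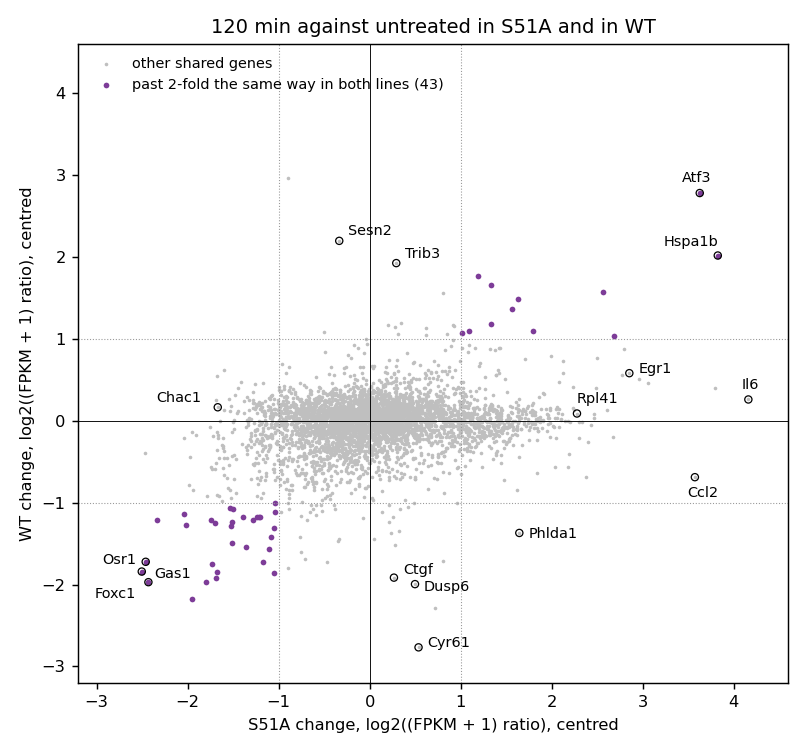
Change from untreated to 120 min in S51A (horizontal axis) and in WT (vertical axis) for 4328 genes, each as log2 of the FPKM + 1 ratio centred on its own median. Purple points are the 43 genes past 2-fold the same way in both lines; most S51A changes, such as Il6 and Rpl41, lie near 0 on the WT axis, and Sesn2, Trib3, Dusp6, Ctgf and Cyr61 lie near 0 on the S51A axis.

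Against WT at the same time, the S51A changes turned many of the authors' calls round. By the authors' deposited tables, as many as 449 of the 4328 shared genes (10.4%) were lower in S51A than in WT when untreated and higher at 120 min, and 335 (7.74%) did the reverse. Of the 497 genes that rose in S51A 357 (71.8%) were of the first kind, and of the 269 that fell 135 (50.2%) were of the second. Before removal of the medians, S51A levels moved more than WT levels in 420 of the 449 and in 322 of the 335. The median change of the 449 was 1.32 in S51A and -0.05 in WT, and that of the 335 was -0.92 in S51A and 0.10 in WT. A gene can be shared only if it was called at both times, so genes whose lines became alike by 120 min are outside all these counts.

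The label fits what the tables list. Of 13 fibroblast markers 9 were listed at 120 min, with a summed level of 2782 FPKM, and 11 untreated, with 3839 FPKM, in S51A. The sums run over different genes, since S100a4 was listed only at 120 min and Vim, Fn1 and Pdgfra only untreated, and are not compared. No endothelial or muscle marker was listed, of 6 macrophage markers 1 was listed at 120 min (0.165 FPKM) and 2 untreated (1.59 FPKM in sum), and of 5 epithelial markers only Krt19, a keratin, at 21.7 FPKM at 120 min against 8.17 FPKM untreated. Markers not listed are not thereby shown to be at 0. In bulk RNA, fewer cells of a kind and less message per cell cannot be told apart. The sum of FPKM over the 4328 genes was 364138 in S51A at 120 min against 197814 untreated. In WT it was 255493 at 120 min against 264975 untreated. This difference in composition moves with the short genes above, of which Mir6236 alone held 42055 FPKM in S51A at 120 min and 10885 FPKM untreated.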

How the data were processed

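Polyadenylated RNA of 18 samples in 6 groups was sequenced from one end for 75 nt, per the labels' protocols. STAR, Cufflinks, Cuffdiff and the build mm10 appear, without versions, in the submitters' processing notes. Per the file headers, the authors deposited log2 FPKM for WT and for S51A, their log2 ratio (S51A over WT) and a q-value (a p-value adjusted by the authors), 1 group value each. A log2 value of -10 was read as 0. The q-values reach 0.05, so uncalled genes are not seen, and 3 further columns were not used. Counts and depth were not used here, so precision is unknown.

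Changes were computed in Python 3.11.15 with pandas 2.3.3 and a pseudocount of 1 FPKM, which understates changes of low genes, and were set against the median of the 4328 genes or of their transcript length group (10 groups). Start positions had 1 added. GENCODE matched 4317 genes, 4200 by symbol and 117 by synonym. The same steps recovered changes put into simulated data. Those changes were all 4-fold or larger, in genes with at least 5 FPKM untreated, so recovery of changes near 2-fold was not checked. The noise put in was small and the length trend weaker than the real one. Recovery was thus largely fixed in advance: it checks the arithmetic and not the precision of the real values. No counts or replicates were held, so the comparison is descriptive and no paired fit or omission of a replicate could be made.

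The genes named are the 12 highest and 12 lowest changes with at least 5 FPKM in either S51A group, up to 4 members of each of 30 gene lists and a set of 20 genes; further list members were named after their values were seen. Members and lists were chosen with earlier results of these data known. Alternatives tried were other pseudocounts, level minimums, centring and thresholds.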

Additional observations from a re-analysis of the deposited data

How the results depend on the processing

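No paired analysis was possible because the tables hold 1 value per group, and for the same reason no replicate could be left out. Against 497 genes higher and 269 lower, a pseudocount of 0.1 FPKM gave 424 lower and one of 5 FPKM gave 75 lower, without centring 430 were lower, 304 were higher among genes listed at every time, a 1.5-fold mark gave 881 and 762, and a 4-fold mark 50 and 8. Within transcript length groups 156 were higher and 163 lower, and with lengths of the longest transcript, an alternative added after seeing the data, 157 and 159. Medians that moved by over 1.5-fold within length groups (longest transcript in brackets) were those of cytosolic ribosomal proteins, 0.64 (0.68), mitochondrial ribosomal proteins, 0.18 (0.19), oxidative phosphorylation, 0.49 (0.53), the proteasome, 0.35 (0.36), and SR proteins and hnRNPs, 0.92 (0.92). Centred within groups of untreated level they were 0.97 for cytosolic ribosomal proteins, 0.46 for the proteasome, -0.37 for endoplasmic reticulum chaperones and -0.47 for contractile genes, and with at least 5 FPKM that of MAP kinase feedback inhibitors was -1.05. Of all 328 values of counts, list medians and the length trend under alternatives, 301 stayed within 1.5-fold. A list median near 0 can lose its sign and still count among the 301. That of NRF2 targets did so, from 0.47 to -0.03 within length groups, so the 301 do not measure whether small medians held. Of 102 named genes past 2-fold, 60 remained past it within length groups, where Cdkn2a (-0.038, and -0.041 with the longest transcript) and Map1lc3a (-0.080 and -0.083) changed sign. The cause of each shift was not tested. Spearman's rank correlation of the change with length was -0.55 among genes whose call kept its direction, -0.70 with at least 5 FPKM and -0.61 among genes in all tables, all added after seeing the data. Without replicate values, the error of any single change is unknown.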

Other observations

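Of 48 interferon-stimulated genes 5 rose and 3 fell in S51A cells (median 0.10), shares near the 11.5% and 6.22% of all shared genes, and within length groups none rose and 4 fell. Isg15, a ubiquitin-like modifier, was at 176 FPKM at 120 min against 86.8 FPKM untreated (change 1.19, and 0.01 in its length group), while Parp14, with a transcript of 7417 nt, was at 1.91 against 7.11 FPKM. Of 9 SR protein and hnRNP genes, which act in splicing, Srsf3 (309 against 133 FPKM), Srsf7 (236 against 124 FPKM) and Srsf11 (119 against 63.6 FPKM) rose, and Hnrnpul1 fell (29.2 against 69.6 FPKM); the median of the list was 0.24 against all genes and 0.92 within length groups.

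Among growth factor genes, Hbegf, a ligand of the EGF receptor, rose to 29.7 FPKM, against 6.63 FPKM untreated, and its receptor gene Egfr fell to 6.11 FPKM, against 16 FPKM untreated. In WT Hbegf was at 21.3 against 34.3 FPKM and Egfr at 1.25 against 1.26 FPKM. The change of Egfr, whose transcript is 10208 nt long, was -1.08, and -0.39 within its length group; that of Hbegf was 2.18 and 2.04. Bhlhe40, a repressor of the circadian clock, was at 65.8 against 20.7 FPKM in S51A and at 16.7 FPKM at both times in WT. Cdkn2a, a cell cycle inhibitor, was at 666 against 340 FPKM in S51A (change 1.15, and -0.038 in its length group) and 234 against 232 FPKM in WT. Of 21 S phase and mitosis genes 1 fell, Cenpf, at 6.5 against 18 FPKM; its change was -1.16, and -0.47 within its length group, where no member fell.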
